A study of Bos indicus with 12 samples.

Results

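The CL of cows on day 18 was examined for 36 genes of cholesterol and lipid synthesis, uptake and storage. Members were the rows of the deposited table whose gene symbol was on a list of 36 symbols, and each symbol was found on 1 row, so that all 36 were described among 15178 genes. They were read as 7 genes of the mevalonate arm, 11 of the sterol arm, 5 of sterol sensing, 5 of uptake, transport and storage, and 8 of the fatty acid arm. The study compared the CL of 6 pregnant (P) and 6 non-pregnant (NP) Bos indicus cows, all synchronized, multiparous and not lactating, with 1 poly-A RNA library per cow. P cows had been inseminated and carried an elongated embryo in the uterine flush, and the study also looked at interferon-stimulated genes and progesterone when choosing them. The comparison group of the study was synchronized cows in their cycle without insemination, and the sample labels state only non-pregnancy. RNA came from pieces of whole CL, in which fewer cells of a type and less RNA per cell cannot be told apart.

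Cells build cholesterol from acetyl-CoA, first through mevalonate to isoprenoids and then through squalene and lanosterol to the finished sterol. When membranes are low in sterol, the escort protein SCAP carries the SREBP transcription factors to the Golgi for cleavage, and they switch on the genes of sterol and fatty acid synthesis; when sterol is plentiful, INSIG proteins hold SCAP back in the endoplasmic reticulum. Luteal cells use cholesterol to make progesterone, take much of it from lipoproteins, and keep a reserve as esters in lipid droplets.

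Values are normalized counts, that is reads per gene divided by the size factor of the library. Reads on genes numbered 6148184 to 8253360 in NP libraries and 2038858 to 7534503 in P libraries, and the 3 smallest libraries were P cows 01, 18 and 28. Each comparison with limma used log2(value + 1), and a gene was called where the adjusted p was below 0.05 and the log2 fold change was at least 0.58 in size. Means are given ± SD over the 6 cows of a group, and log2 fold changes are P against NP on the log2(value + 1) scale. ACAT2, PMVK, SCAP, NPC1, ACACA, FADS1 and FADS2 overlap another protein-coding gene. Since it is not known whether counting used strand, their values can be affected by the neighbour in a direction that is not known. CYP11A1, a defining marker of steroidogenic luteal cells, was at 49770 ± 5616 in NP and 59210 ± 8835 in P. It is 1 of 7 luteal markers tested, of which 2 had a log2 fold change below 0 and 1 (PTGFR) was called lower in P.

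Of the 36 genes, 7 fell in P and 0 rose, while 29 did not pass the test. The 7 that fell were INSIG2 of sterol sensing, SOAT1 of cholesterol storage, ACLY, ELOVL6 and HSD17B12 of the fatty acid arm, and HSD17B7 and DHCR7 of the sterol arm. Among all 11907 genes tested, 14.8% were called lower in P, 12% higher and 26.8% in either direction, against 19.4% of the members in either direction. The log2 fold change was below 0 in 35 of the 36 genes (97.2%) and in 50.7% of all genes, with a median of -0.42 over the members, from -1.86 to 0.06, and of -0.01 over all genes. Many members rise and fall together from cow to cow, so that this count is a description of 12 cows and not of 36 separate measurements. At an unadjusted p below 0.05, 15 members were lower in P and 0 higher, where 23.9% of all genes were lower and 22.2% higher. Without P cows 01, 18 and 28, 2 members (INSIG2 and SOAT1) were called lower, 28 were below 0 and the median was -0.17, where 8.04% of all genes were called lower and 4.2% higher. With log2 library size as a covariate only SOAT1 was called, where 2.75% of all genes were called lower. Without P cow 27 the number called lower was 16, where 16.2% of all genes were called lower.

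**Figure D1:**
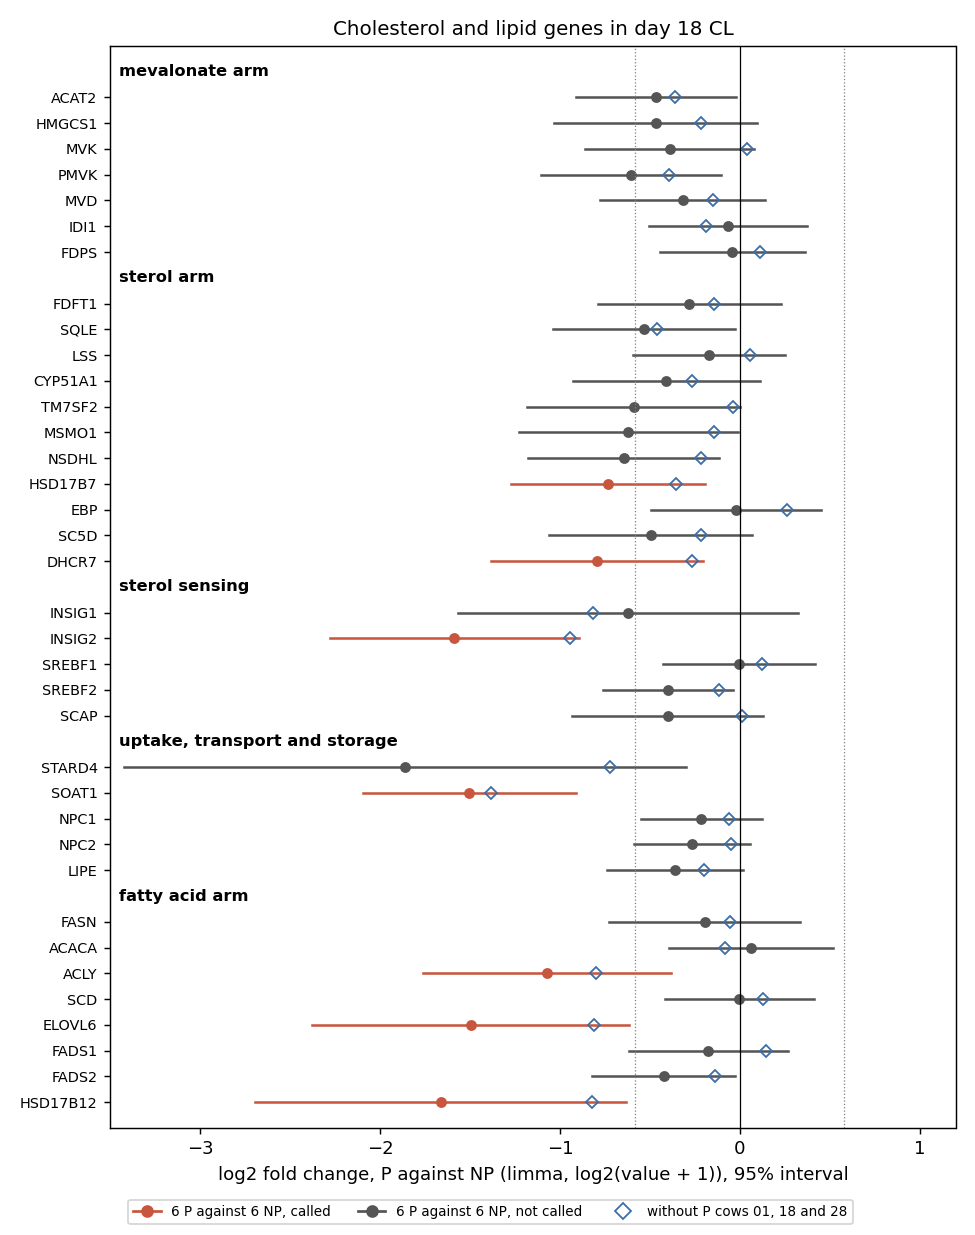
Log2 fold change (x axis, P against NP on the log2(value + 1) scale) of the 36 genes (y axis, by arm), with limma estimates and 95% intervals from 6 P and 6 NP cows, red where called, and dotted lines at 0.58 in size. Open diamonds are the estimates without P cows 01, 18 and 28. Of the 36 estimates 35 lie left of 0, 7 are called, and only 28 lie left of 0 once the 3 cows are left out.

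Sterol sensing was marked by INSIG2 (ENSBTAG00000002112), one of the pair of endoplasmic reticulum proteins that retain SCAP. Its lowest, median and highest values were 36.2, 47.8 and 67.2 in NP and 8.14, 15.9 and 29.7 in P. Every P cow was below every NP cow, and P cows 01, 18 and 28 were the lowest at 8.14, 10.3 and 10.5. INSIG2 fell by 1.59 on the log2 scale (SE 0.33, 95% interval -2.28 to -0.89, adjusted p = 0.00298). Its depth was low, with 51 to 106 reads in NP cows and 4 to 32 in P cows. INSIG2 passed the filter on low values only through NP cows, and with no filter the adjusted p was 0.0035. Without P cows 01, 18 and 28 the log2 fold change was -0.94 (adjusted p = 0.0299), and with library size as a covariate it was -0.98 (adjusted p = 0.0922).

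INSIG1, the other retention protein and itself a target of SREBP, varied widely within both groups. It ranged from 1211 to 5134 in NP, with a median of 3052, and from 719 to 5044 in P, with a median of 1557. NP cow 05 and P cow 27 were the highest of their groups and the groups overlapped almost fully. The log2 fold change was -0.62 with a 95% interval of -1.57 to 0.32 (adjusted p = 0.285). SREBF2, which encodes the SREBP that mainly drives sterol genes, was 3674 ± 603 in NP and 2820 ± 681 in P (log2 fold change -0.40, 95% interval -0.76 to -0.04, adjusted p = 0.0799). SREBF1, which encodes the SREBP that mainly drives fatty acid genes, was 1125 ± 413 in NP and 1076 ± 159 in P, and its interval of -0.43 to 0.42 was centred near 0. SCAP was 4807 ± 1019 in NP and 3854 ± 1624 in P, with an adjusted p of 0.217. Of the 5 sensing genes, 1 was therefore called (20%, compared with 26.8% of all genes in either direction). The median log2 fold change of the 5 was -0.40, or -0.12 without P cows 01, 18 and 28.

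Among the genes of uptake, transport and storage, SOAT1 (ENSBTAG00000004059) fell in P. SOAT1 esterifies free cholesterol for storage in lipid droplets. Its lowest, median and highest values were 314, 584 and 863 in NP and 92.5, 221 and 253 in P. All 6 P cows were below all 6 NP cows, NP cow 22 was the highest and P cow 18 the lowest, and P cows 01 and 28 (215 and 251) were within the range of the other P cows. SOAT1 fell by 1.50 on the log2 scale (SE 0.28, 95% interval -2.10 to -0.91, adjusted p = 0.00182). INSIG2 and SOAT1 were the 2 members whose groups did not overlap (5.56%), compared with 7.41% of all genes in this direction, 6.21% in the other and 13.6% in either. SOAT1 was called in every setting tried. Its log2 fold change was -1.38 without P cows 01, 18 and 28 (adjusted p = 0.0178) and -1.33 with library size as a covariate (adjusted p = 0.0492).

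STARD4, a soluble carrier that moves cholesterol between membranes, had the lowest log2 fold change of the 36, -1.86 (SE 0.73), and did not pass the test (adjusted p = 0.0601). Its values ran from 5.32 to 74.2 in NP, with a median of 13.6, and from 0 to 18.8 in P, with a median of 3.77. NP cows 22 and 32 were the only ones above 30, so that STARD4 passed the filter on low values through them alone, and P cow 01 had no read. The lysosomal pair that releases cholesterol from endocytosed lipoproteins was NPC1, at 723 ± 129 in NP and 627 ± 141 in P (adjusted p = 0.301), and NPC2, at 1414 ± 151 in NP and 1199 ± 299 in P (adjusted p = 0.183). LIPE, the hormone-sensitive lipase that frees cholesterol from its esters in steroidogenic cells, was 559 ± 157 in NP and 430 ± 85.5 in P (log2 fold change -0.36, 95% interval -0.74 to 0.02). Neither the NPC genes nor LIPE passed the test, and their groups overlapped.

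The fatty acid arm held 3 of the 7 genes that fell, which was 37.5% of the arm, compared with 14.8% of all genes called lower. The first of the 3, ACLY (ENSBTAG00000016740), splits citrate into the cytosolic acetyl-CoA that feeds both fatty acid and sterol synthesis. ACLY had its lowest, median and highest values at 3524, 8023 and 14399 in NP and at 2365, 3532 and 8021 in P. NP cow 42 was far below the other NP cows, P cow 27 was at the level of the NP median, and the remaining P cows were below the other 5 NP cows. ACLY fell by 1.07 on the log2 scale (SE 0.32, adjusted p = 0.02), and without P cows 01, 18 and 28 the log2 fold change was -0.80 (adjusted p = 0.196).

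The other 2 act in the elongation of fatty acids beyond palmitate at the endoplasmic reticulum. ELOVL6 (ENSBTAG00000010564), the elongase of saturated and monounsaturated chains, had its lowest, median and highest values at 309, 446 and 700 in NP and 49.4, 155 and 421 in P. P cows 01, 18, 28 and 29 were below every NP cow, whereas P cows 19 and 27 were within the NP range. ELOVL6 fell by 1.50 on the log2 scale (SE 0.41, adjusted p = 0.0129). HSD17B12 (ENSBTAG00000000087), the ketoacyl-CoA reductase of the same elongation cycle, had 2223, 4818 and 8586 in NP and 417, 1535 and 3841 in P. The same 4 P cows were below every NP cow, and P cow 18 was again the lowest. HSD17B12 fell by 1.66 on the log2 scale (SE 0.48, adjusted p = 0.0166). Both calls were kept with each cow left out in turn and were lost without P cows 01, 18 and 28, where the log2 fold changes were -0.81 for ELOVL6 (adjusted p = 0.143) and -0.82 for HSD17B12 (adjusted p = 0.199).

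The steps between ACLY and elongation did not pass the test. ACACA, the acetyl-CoA carboxylase that makes malonyl-CoA, was 305 ± 129 in NP and 305 ± 64.5 in P, and was the only member with a log2 fold change above 0 (0.06, 95% interval -0.39 to 0.52), a sign that turned with edgeR (-0.01) and without P cows 01, 18 and 28 (-0.08). FASN, the fatty acid synthase, was 11097 ± 4742 in NP and 9362 ± 2535 in P (log2 fold change -0.19, 95% interval -0.72 to 0.33). SCD, which places the first double bond in saturated chains, was 13781 ± 3717 in NP and 13553 ± 2321 in P, and its interval ran from -0.41 to 0.41. For these 3 genes a change of 1 log2 unit lay outside the interval in either direction. The desaturases of polyunsaturated chains were FADS1, at 1964 ± 480 in NP and 1780 ± 570 in P (adjusted p = 0.531), and FADS2, at 2236 ± 585 in NP and 1676 ± 442 in P (log2 fold change -0.42, adjusted p = 0.0906). Over the 8 genes of the arm the median log2 fold change was -0.31, and -0.11 without P cows 01, 18 and 28.

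**Figure D2:**
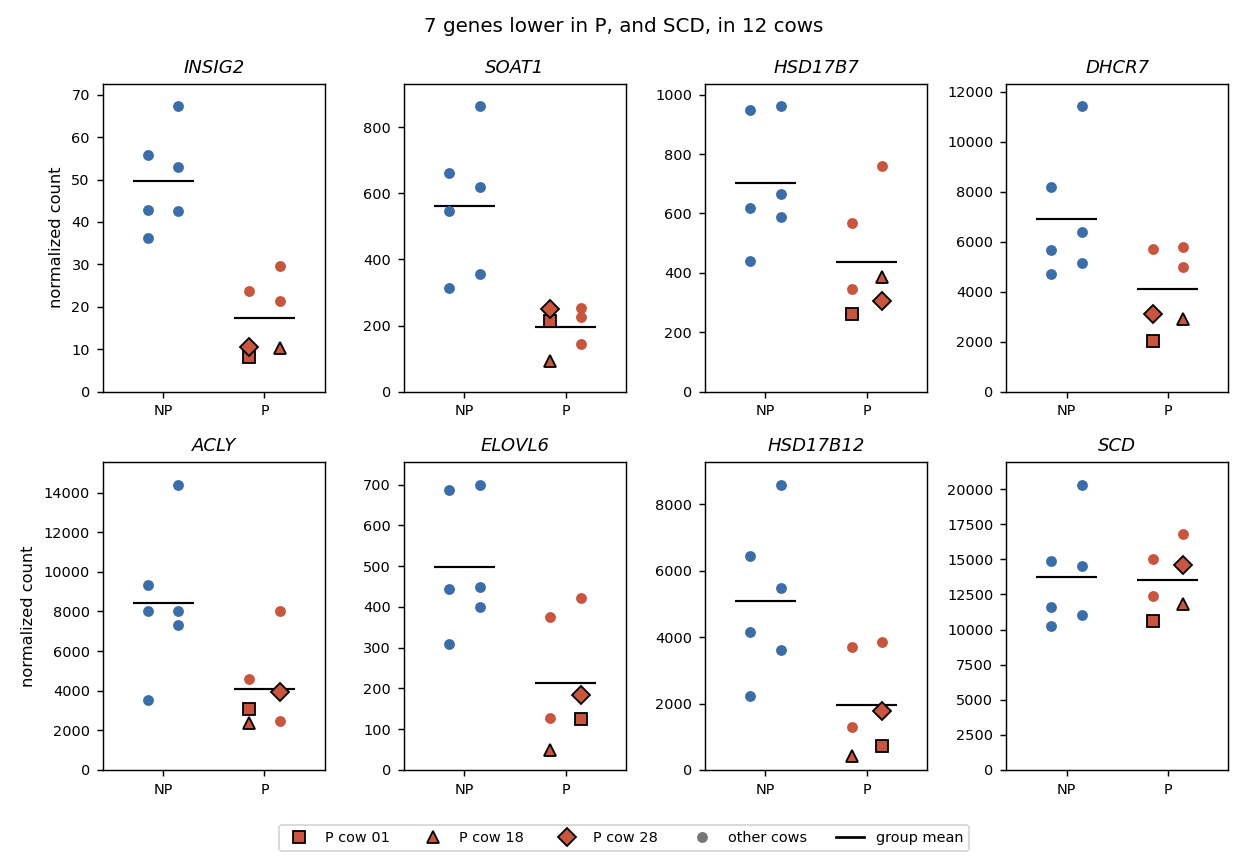
Normalized counts (y axes, linear, from 0) of the 7 genes that fell in P, and of SCD as a gene that did not pass the test, in 6 NP and 6 P cows (x axes), 1 point per cow with the group mean as a line. P cows 01, 18 and 28 are marked by a square, a triangle and a diamond. INSIG2 and SOAT1 show no overlap of the groups, and in ELOVL6 and HSD17B12 the P cows reach from 49.4 to 421 and from 417 to 3841.

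Of the 11 genes of the sterol arm, which leads from squalene to cholesterol, 2 fell in P and 9 did not pass the test. The share called lower was 18.2%, compared with 14.8% of all genes. DHCR7 (ENSBTAG00000016465), the reductase that turns 7-dehydrocholesterol into cholesterol, had its lowest, median and highest values at 4715, 6033 and 11408 in NP and 2028, 4053 and 5790 in P. P cows 01, 18 and 28 were below every NP cow, while P cows 19, 27 and 29 were within the NP range. DHCR7 fell by 0.79 on the log2 scale (SE 0.28, adjusted p = 0.0377). HSD17B7 (ENSBTAG00000005976), the ketosteroid reductase of sterol demethylation, which also converts estrone to estradiol, had 441, 642 and 960 in NP and 262, 365 and 760 in P. P cows 19 and 27 were within the NP range and the other 4 P cows were below it. HSD17B7 fell by 0.73 on the log2 scale (SE 0.25, adjusted p = 0.0365). Both calls were near the threshold: DHCR7 lost its call on removal of any 1 of NP cows 22, 31 and 32 and P cows 01, 18 and 28 (range of the adjusted p 0.0581 to 0.0804). HSD17B7 lost its call on removal of any 1 of the same cows or of P cow 29 (range of the adjusted p 0.0573 to 0.0867). With edgeR the adjusted p of HSD17B7 was 0.0518. Without P cows 01, 18 and 28 together, the log2 fold changes were -0.27 for DHCR7 and -0.35 for HSD17B7.

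The first committed steps of the sterol arm were FDFT1, the squalene synthase, at 3777 ± 1562 in NP and 3073 ± 1079 in P (adjusted p = 0.373), and SQLE, the squalene epoxidase and a rate-limiting step, at 4790 ± 1546 in NP and 3327 ± 1090 in P (log2 fold change -0.53, 95% interval -1.04 to -0.03, adjusted p = 0.0931). LSS, which closes the lanosterol rings, was 3807 ± 1138 in NP and 3376 ± 905 in P (adjusted p = 0.516). The enzymes that remove the methyl groups of lanosterol and reshape its double bonds had lower P means, with overlap in each. CYP51A1 was 3009 ± 947 in NP and 2320 ± 961 in P, TM7SF2 5658 ± 1289 and 4096 ± 2020, and MSMO1 10505 ± 2472 and 7449 ± 3889. NSDHL was 3713 ± 882 in NP and 2510 ± 1050 in P, with the adjusted p nearest the threshold among those not called in this arm (0.0561). SC5D was 2189 ± 554 in NP and 1650 ± 748 in P (adjusted p = 0.153). EBP, the sterol isomerase, was 966 ± 324 in NP and 954 ± 300 in P (log2 fold change -0.02, 95% interval -0.49 to 0.45). The median over the arm was -0.53, and -0.22 without P cows 01, 18 and 28.

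No gene of the mevalonate arm was called, where 26.8% of all genes were called in either direction. All 7 had a log2 fold change below 0 with a median of -0.39, where 50.7% of all genes were below 0. Without P cows 01, 18 and 28, MVK and FDPS were above 0 and the median was -0.19. ACAT2, the thiolase that joins acetyl-CoA units, was 2535 ± 676 in NP and 1856 ± 568 in P (log2 fold change -0.47, adjusted p = 0.0934). HMGCS1, the HMG-CoA synthase, ran from 22975 to 47630 in NP and from 12232 to 34428 in P, with medians of 26366 and 22035. NP cow 32 was the highest and P cow 01 the lowest, and the interval of its log2 fold change was -1.03 to 0.10. The kinases and decarboxylase that turn mevalonate into isopentenyl diphosphate were MVK, at 1431 ± 338 in NP and 1134 ± 441 in P, PMVK, at 211 ± 76.5 and 138 ± 42.1, and MVD, at 1577 ± 604 and 1239 ± 344. PMVK came closest to the threshold in this arm (log2 fold change -0.60, SE 0.23, adjusted p = 0.0567). The isomerase IDI1 and the farnesyl diphosphate synthase FDPS had the smallest differences, with log2 fold changes of -0.07 (95% interval -0.51 to 0.37) and -0.04 (-0.45 to 0.36).

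Many of the members, but not all, differed between cows of the same group in a shared way. NP cow 32 was the highest NP cow in 29 of the 36 genes, among them all 18 of the mevalonate and sterol arms and all 8 of the fatty acid arm, compared with 21.5% of all genes. NP cow 42 was the lowest NP cow in 28 of the 36, compared with 16.4% of all genes. In P, cow 27 was the highest in 22 of the 36 (16 of the 18 genes of the mevalonate and sterol arms) and cow 19 in 12 of the 36 (5 of the 8 of the fatty acid arm), against 15.7% and 16.3% of all genes. P cow 01 was the lowest P cow in 19 of the 36 and P cow 18 in 10, against 17.2% and 21.2% of all genes. As the median over the 36 genes of the log2 deviation from the NP mean, NP cows ran from -0.41 in cow 42 to 0.64 in cow 32, and P cows from -0.85 in cow 01 to 0.16 in cow 27. P cow 27 was thus above 5 of the 6 NP cows on this measure, and the other values in P were -0.58 for cow 18, -0.56 for cow 29, -0.46 for cow 28 and -0.14 for cow 19.

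**Figure D3:**
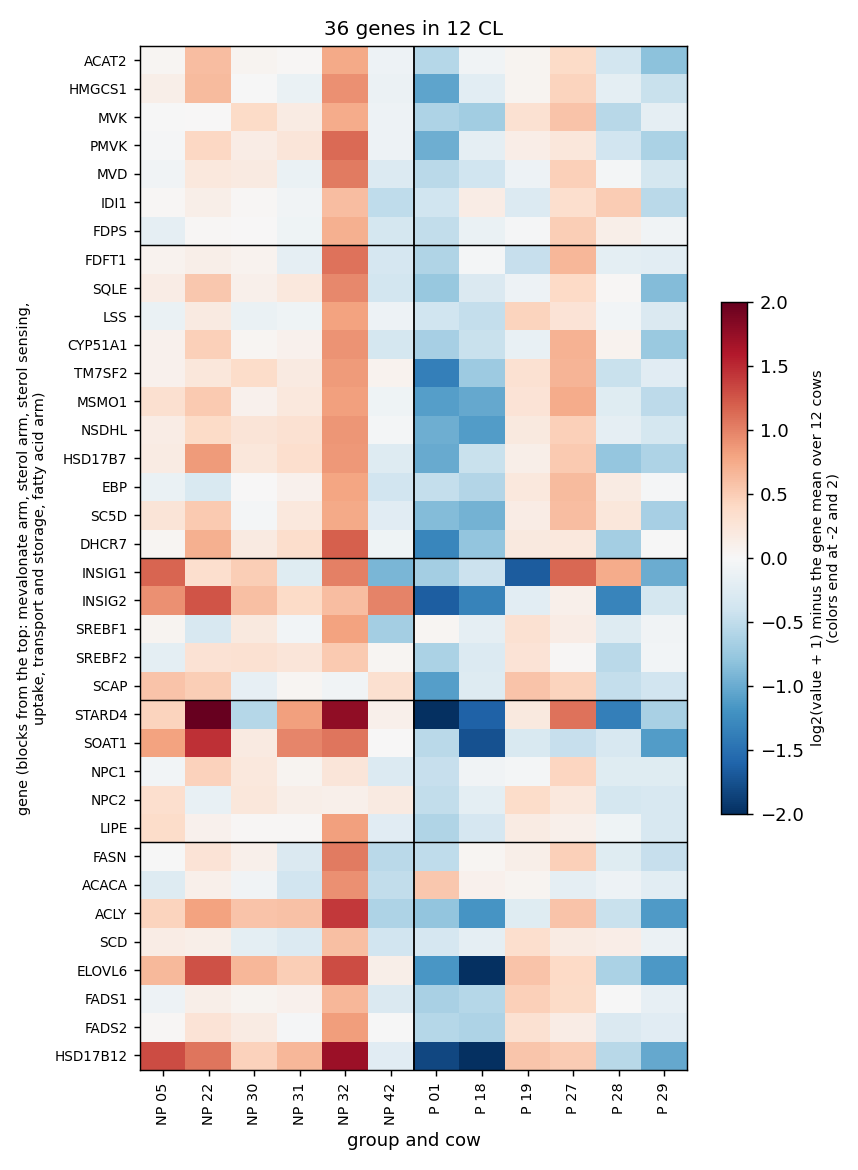
Heat map of log2(value + 1) minus the mean of each gene over the 12 cows (colour scale, ending at -2 and 2) for the 36 genes (rows, in 5 blocks by arm) in the 6 NP and 6 P cows (columns). NP cow 32 is the highest NP cow in 29 rows and NP cow 42 the lowest in 28, and P cow 01 is the lowest P cow in 19.

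The within-group SD on the log2 scale had a median of 0.39 in NP (0.16 to 1.28) and 0.47 in P (0.21 to 1.50), and was larger in P in 28 of the 36 genes, compared with 69.7% of all genes. Of the 12 cows, the lowest value was in a P cow in 32 of the 36 genes, and in P cow 01 or 18 in 27 of them, compared with 56.3% and 26.7% of all genes. A P cow was above every NP cow in 1 of the 36, compared with 54.7% of all genes. In 17 of the 36 genes, P cows 01, 18 and 28 were each below every NP cow, compared with 16.9% of all genes. These 3 cows also had the fewest reads, and the part of depth in these values was not tested beyond the settings named above. With the reads of all libraries thinned to 2038858, the number of members called lower was 8 and the median -0.47. Over all genes the number called lower was then 1627 and the median -0.04.

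**Figure D4:**
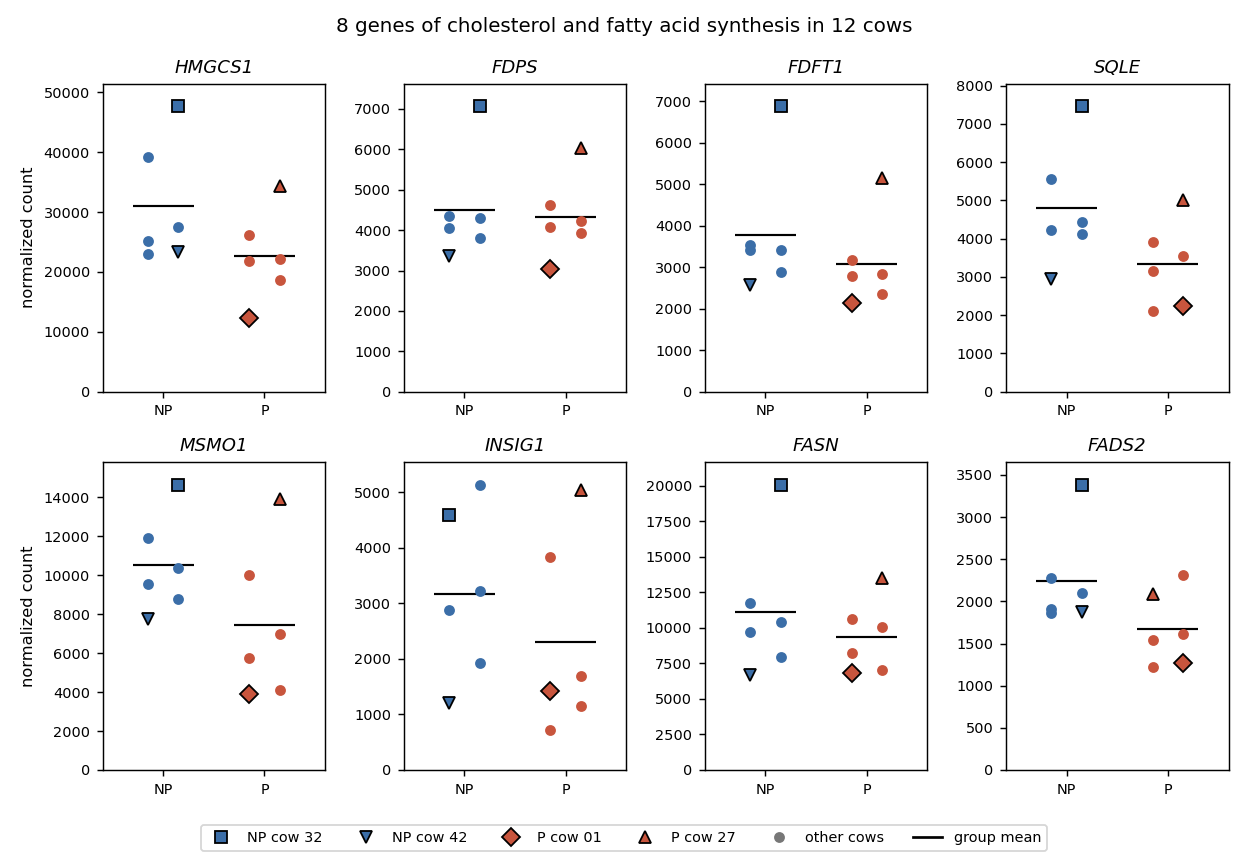
Normalized counts (y axes, linear, from 0) of 8 genes of cholesterol and fatty acid synthesis in 6 NP and 6 P cows (x axes), 1 point per cow with the group mean as a line, with NP cows 32 and 42 and P cows 01 and 27 marked. NP cow 32 is the highest of the 12 cows in 7 of the panels and P cow 27 is the highest P cow in 7.

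Markers of the cell types of the CL were read beside these values. The summed level of 7 luteal markers was 134520 to 233010 in NP and 183620 to 246590 in P. NP cows 32 and 42 were the highest and lowest NP cows, and P cows 27 and 01 the highest and lowest P cows. These cows were also most often the highest and lowest of their group for the members. Between them the order differed in NP, where cow 22 was next to lowest in marker sum (141720) but next to highest in median log2 deviation over the members (0.13). In P, cow 19 was next to highest on both measures (244150 and -0.14). P cow 29 had a higher marker sum than P cow 28 (204790 and 197810) but a lower deviation (-0.56 and -0.46). Of the 7 luteal markers, only PTGFR was called (lower in P). STAR, which carries cholesterol into mitochondria, had a log2 fold change of -0.53 (adjusted p = 0.156) and HSD3B1, which makes progesterone, of 0.56 (adjusted p = 0.109). Of 8 endothelial markers, 2 fell (PECAM1 fell by 2.56 and CDH5 fell by 1.19 on the log2 scale), and the sum was 5722 to 9689 in NP and 3590 to 9001 in P. Of 8 leukocyte markers, CD3E rose, with a summed level of 471 to 1226 in NP and 707 to 1245 in P. Of 6 smooth muscle and pericyte markers, MYH11 and DES rose and PDGFRB fell, with sums of 4802 to 12432 in NP and 5335 to 14156 in P. Of 4 adipocyte markers in the table, LIPE being one of them, 3 were tested and 0 called, the sums were 501 to 889 in NP and 465 to 614 in P, and FABP4 reached at most 4.94. Blood markers summed to 3.28 to 17.6 in NP and 13.0 to 47.8 in P, and HBB rose. HBB passed the filter on low values only through P cows, the group in which it was higher. The share called in either direction was 14.3% for luteal, 25% for endothelial, 12.5% for leukocyte and 50% for smooth muscle and pericyte markers. Over all genes this share was 26.8%. Without P cows 01, 18 and 28 the calls of PTGFR, PECAM1 and CDH5 were kept, and those of CD3E, MYH11, DES, PDGFRB and HBB were lost (adjusted p = 0.0571 to 0.128). With library size as a covariate only PECAM1 of these 8 markers was called. No marker in the table was 0 in every cow, and the part of these cell types in the results was not tested. The housekeeping genes GAPDH and RPS26 had log2 fold changes of -0.14 (adjusted p = 0.543) and 0.22 (adjusted p = 0.288).

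Of 17 other tested genes of sterol synthesis and sensing, 6 were called lower (35.3%) and 0 higher, with a median log2 fold change of -0.37. Among all genes 14.8% were called lower and 12% higher. MBTPS2, the site-2 protease that releases SREBP from the membrane, fell by 0.77 (107 ± 14.0 in NP and 63.6 ± 15.3 in P, adjusted p = 0.00625), and its groups did not overlap. ERG28, a scaffold of the sterol demethylation enzymes, fell by 0.95 (453 ± 101 in NP and 247 ± 113 in P, adjusted p = 0.00825). Without P cows 01, 18 and 28, the log2 fold changes were -0.46 for MBTPS2 (adjusted p = 0.0671) and -0.57 for ERG28 (adjusted p = 0.152). Of the 17, 1 was then called lower, where 8.04% of all genes were called lower. With library size as a covariate 1 of the 17 was called lower, where 2.75% of all genes were called lower.

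Of 26 tested genes of lipoprotein uptake, sterol efflux and transport, 7 fell and 1 rose, with a median of -0.37. The share called in either direction was 30.8%, compared with 26.8% of all genes. The 3 of the 26 with the smallest adjusted p belong to the oxysterol-binding proteins, which carry sterols between membranes. OSBPL2 was 146 ± 25.9 in NP and 67.1 ± 12.6 in P and fell by 1.11 (adjusted p = 0.000987), OSBP fell by 0.74 (adjusted p = 0.0051) and OSBPL9 by 0.78 (adjusted p = 0.00601). Only OSBPL2 stayed past the test without P cows 01, 18 and 28. With library size as a covariate 1 of the 26 was called lower and 0 higher, where 2.75% of all genes were called lower.

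Of 41 tested genes of fatty acid activation, glycerolipid assembly and lipid droplets, 9 fell and 2 rose, with a median of -0.30. The share called in either direction was 26.8%, the same as the 26.8% of all genes. LPIN2, a phosphatidate phosphatase on the path to triglyceride, was 207 ± 54.2 in NP and 80.1 ± 16.9 in P and fell by 1.34 (adjusted p = 0.000816). AGPAT3, an acyltransferase of the same path, was 203 ± 27.7 in NP and 93.7 ± 31.1 in P and fell by 1.17 (adjusted p = 0.00178). HACD3, the dehydratase that acts after HSD17B12 in chain elongation, was 53.9 ± 17.3 in NP and 16.4 ± 8.30 in P and fell by 1.72 (adjusted p = 0.00207). The 2 that rose were AGPAT2 (22.5 ± 2.95 in NP, 39.1 ± 6.53 in P, adjusted p = 0.0126) and LPIN3 (103 ± 11.9 in NP, 165 ± 49.9 in P, adjusted p = 0.0163). AGPAT2 had at most 44 reads and passed the filter on low values only through P cows, the group in which it was higher. With thinned reads neither was called (adjusted p = 0.0646 for AGPAT2 and 0.0797 for LPIN3). Without P cows 01, 18 and 28, 4 of the 41 fell and 0 rose, where 8.04% of all genes were called lower and 4.2% higher. With library size as a covariate 2 of the 41 fell and 0 rose, where 2.75% of all genes were called lower. AGPAT3 then lost its call (log2 fold change -0.85, adjusted p = 0.0568).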

How the data were processed

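Poly-A libraries of 12 CL were sequenced as single-end reads. The authors trimmed reads with cutadapt, mapped them with STAR 2.4.2a to ARS-UCD1.2 with Ensembl genes, counted them per gene with htseq-count, and deposited, for 15178 genes, a signal that is the count divided by the DESeq2 size factor. The deposited table also holds the authors' log2 fold changes and p-values, which were not used here. Versions not named were not given in the sources used here.

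Log2(value + 1) was compared by limma 3.58.1 in R 4.3.3, letting the variance follow the mean. The 11907 genes that reached 30 in any cow were tested, with Benjamini-Hochberg adjustment over them. Calls needed a fold change of 0.58 or more in log2 size besides an adjusted p under 0.05. The script was tested on simulated data. The members and lists were chosen with earlier results of these data known. Named genes are every member, up to 3 called genes with the smallest adjusted p of each pathway list, and GAPDH and RPS26. Labels name each cow, so that cows are the replicates. In each library at least 99.98% of values were whole reads within 0.0051, and these reads served edgeR 4.0.16 and DESeq2 1.42.0. Other alternatives were TMM scaling, other filters and pseudocounts (0.5 and 5), thinning, a library total covariate, and leaving out cows. All 36 symbols matched RefSeq names of a Bos indicus assembly, which is not the ARS-UCD1.2 assembly used for mapping. In it 13 members overlap another gene and 7 a protein-coding one. Whether counting used strand is not given in the sources used here. List genes without a row, such as LHCGR, DGAT2 and ADIPOQ, and all sequences were not analysed here, and the values of some list genes are not reported here.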

Additional observations from a re-analysis of the deposited data

Results flagged for a closer look

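In 14 of the 72 groups of 6 values (36 genes in NP and in P), 1 cow stood apart from the rest, in that its gap to the nearest cow was more than 0.625 of the range of the group. Chance flags about 1 in 20 such groups if the values are normally distributed. The rule was applied to normalized counts without a log, for which the share flagged by chance was not worked out. Many of the genes also vary together, so that the 14 are not separate events. NP cow 32 was the cow that stood apart in 11 of them, each time as the highest NP cow: PMVK (360 normalized counts), MVD (2758), FDPS (7063), FDFT1 (6873), LSS (6055), TM7SF2 (8171), NSDHL (5385), EBP (1592), ACACA (557), FADS1 (2871) and FADS2 (3384). The nearest other NP cow was at 3527 for FDFT1 and at 4361 for FDPS. Without NP cow 32 the median log2 fold change of the 36 genes was -0.33 and 30 of them were below 0.

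The remaining 3 were P cow 27 as the highest P cow in FDFT1 (5142), P cow 01 as the highest P cow in ACACA (428), and NP cow 22 as the highest NP cow in STARD4 (74.2). P cow 01 was the lowest P cow in 19 of the 36 genes, and ACACA was the 1 gene in which it was the highest.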

How the results depend on the processing

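The number of members called lower was 7, and it was 6 with edgeR, 9 with DESeq2 and 8 after thinning. It was 2 without P cows 01, 18 and 28 and 1 when log2 library size was a covariate, and between 5 and 16 with each cow left out in turn, the 16 being without P cow 27. No setting called a member higher. Over all genes 3197 were called, 1768 lower and 1429 higher. These counts were 1410, 926 and 484 without the 3 P cows and 510, 328 and 182 with the covariate, and with each cow left out they ran from 2493 to 3562, from 1332 to 1924 and from 1159 to 1649. Over all genes, 1742 were called lower with edgeR, 1819 with DESeq2 and 1627 after thinning. The covariate and the smaller set of cows differ in more than depth, and the cause was not tested.

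Members with small log2 fold changes turned sign in some settings. With the covariate, the values were -0.037 for ACACA, 0.19 for EBP, 0.12 for FADS1, 0.036 for FDPS, 0.032 for LSS, 0.029 for MVK, 0.093 for SCD and 0.16 for SREBF1. Without the 3 P cows they were -0.081 for ACACA, 0.26 for EBP, 0.15 for FADS1, 0.11 for FDPS, 0.057 for LSS, 0.039 for MVK, 0.010 for SCAP, 0.13 for SCD and 0.13 for SREBF1. With edgeR, ACACA was -0.014. With each cow left out, ACACA ran from -0.039 to 0.25, EBP from -0.15 to 0.13, FDPS from -0.14 to 0.099, IDI1 from -0.18 to 0.049, SCD from -0.080 to 0.12 and SREBF1 from -0.14 to 0.16. No paired analysis was possible because the 2 groups share no cow number. The low reads of INSIG2 and STARD4 in P limit the precision of their values, and p-values rest on 6 cows per group.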
